A study of Mus musculus with 10 samples.

Results

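The clustered histone genes encode the core histones H2A, H2B, H3 and H4 and the linker histones H1, and their promoter peaks are described here in mouse macrophages. Members were taken by symbol from the protein-coding genes of the RefSeq table of GRCm38.p6 (mm10). Every gene named H1f, H2ac, H2bc, H3c or H4c with a digit was kept. This gave 67 of 21887 genes, namely 10 for H1, 17 for H2A, 16 for H2B, 12 for H3 and 12 for H4. A member was counted as marked where a deposited peak touched the 1 kb on either side of either annotated gene end.

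The study profiled the nucleolar protein NPM1 (nucleophosmin) and trimethylated lysine 4 of histone H3 (H3K4me3) by CUT&Tag, in which an antibody directs a transposase to cut and tag DNA around the bound protein. NPM1 was profiled in wild-type cardiac macrophages 3 days after a sham operation or after myocardial infarction. NPM1 was also profiled in wild-type macrophages grown from bone marrow (BMDM) over 7 days with 50 ng/ml M-CSF, then left untreated (0 h) or given 20 ng/ml IL-4 for 12 h. H3K4me3 was profiled in cardiac macrophages of wild-type and Npm1 conditional-knockout mice, both 3 days after infarction, so both H3K4me3 groups carry the injury. The cell type in which Npm1 is deleted, the Cre driver, the age and strain of the mice and any pooling of animals are not stated in the sources used here. There was 1 library in each of these 6 groups, so no difference has a replicate check and no test was made. Of 10 libraries in the series, the remaining 4 were not analysed here.

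Most of these genes are replication-dependent: they are switched on as a cell copies its DNA and supply the histones that package the new strand. Their mRNAs end in a stem-loop bound by SLBP in place of a poly(A) tail, and their transcription is gathered by NPAT at histone locus bodies, nuclear structures that sit on the gene clusters. NPM1 is an abundant nucleolar protein that binds histones as a chaperone, and H3K4me3 marks the first nucleosomes of active promoters. A few members serve germ cells or resting cells and are not tied to DNA replication.

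The gene-end peaks of macrophage genes were read as a check of the labelled cell type. Of 8 macrophage genes (Adgre1, Cd68, Csf1r, Lyz2, Itgam, Fcgr1, Mertk and Spi1), 8 were marked in the NPM1 infarct, NPM1 IL-4 and H3K4me3 knockout lists and 7 in the H3K4me3 wild-type list. The NPM1 sham list marked 1 of the 8 and the untreated list 0. Of 5 cardiomyocyte genes at most 1 was marked in any list, of 4 fibroblast genes at most 2, of 3 T-cell genes at most 1, of 3 B-cell genes at most 1 and of 3 neutrophil genes at most 2. Of all genes, sham marked 10.9%, infarct 50.6%, untreated 6.71%, IL-4 51.2%, H3K4me3 wild-type 57.1% and H3K4me3 knockout 61.8%. The sham and untreated macrophage counts, and 2 of 4 fibroblast or 2 of 3 neutrophil genes, are thus near the share of all genes. They do not tell cell types apart. The lists held 58011 (sham), 79893 (infarct), 58989 (untreated), 104514 (IL-4), 73321 (H3K4me3 wild-type) and 52977 (H3K4me3 knockout) peaks. The genome-wide background read out of the fold and p values of the peaks was 1.29 reads in sham, 3.03 in infarct, 1.31 in untreated and 4.18 in IL-4. It was thus 2.35 times as high in infarct as in sham and 3.19 times as high in IL-4 as in untreated cells. Group, library and depth go together in these pairs; with summits scaled down to the sham background, 60 members and 44.1% of all genes kept an infarct peak, and 59 members and 38.0% of genes an IL-4 peak. In the H3K4me3 lists it was 2.92 reads for wild-type and 2.49 for knockout.

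The large cluster on chromosome 13 held 53 members between positions 21715711 and 23934913, among them 6 of the H1, 13 of the H2A, 14 of the H2B, 9 of the H3 and 11 of the H4 genes. The small cluster on chromosome 3 held 10 members between 96219885 and 96270192: 4 for H2A, 2 for H2B, 3 for H3 and 1 for H4. The 4 members outside both clusters were all linker histone genes: H1f10 and H1f8 on chromosome 6, and H1f0 and H1f7 on chromosome 15. The members were short, with a median annotated length of 496 bp against 17169 bp over all genes. In 60 of the 67 the windows at the gene's start and end ran into each other. The median gap between neighbours on chromosome 13 was 2342.5 bp, so neighbours often shared a peak, and distinct peaks are counted beside the members. Some annotations are longer than the histone message, the longest being H2bc6 at 37455 bp and H2bc22 at 14079 bp.

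Several members are near copies of one another, and how reads matching more than 1 copy were placed is not stated in the sources used here. Promoter windows of 300 bases, from 250 before to 50 after the annotated start, were present for 62 members and were compared in 1891 pairs at the best ungapped alignment. The median best identity was 32.2%, and 4 pairs reached 80%. H4c17 and H4c18 were 99.7% identical, H3c15 and H3c14 were 99.6% identical over 285 bases, H4c11 and H4c12 were 95.8% identical, and H2ac19 and H2ac18 were 95.8% identical. Peak values within each of these 4 pairs may share reads and are not separate evidence.

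The 150 bases before the annotated start of 8 members are shown because the results turn on them: H2ac6, H4c9 and H1f2 had the highest infarct NPM1 fold among the H2A, H4 and H1 genes, H2bc15 belongs to the divergent pair with an IL-4 summit between its starts, H3c15 and H3c14 are near copies, and H2bc1 and H1f6 are germ-cell members with no gene-end NPM1 peak. They come from RefSeq on GRCm38.p6 and are written 5′ to 3′ along the gene's own strand. Capitals mark matches, on either strand, to the TATA box (TATAAA), the CCAAT box (CCAAT) and the octamer (ATTTGCAT), a site bound by POU2F1 that is known from H2B promoters.
H2ac6: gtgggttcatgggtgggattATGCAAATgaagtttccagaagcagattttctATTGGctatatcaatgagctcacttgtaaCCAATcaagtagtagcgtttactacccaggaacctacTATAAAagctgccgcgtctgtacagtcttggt
H2bc15: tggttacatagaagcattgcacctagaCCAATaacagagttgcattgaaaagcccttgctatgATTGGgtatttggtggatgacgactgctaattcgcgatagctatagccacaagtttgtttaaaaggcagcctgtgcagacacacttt
H3c15: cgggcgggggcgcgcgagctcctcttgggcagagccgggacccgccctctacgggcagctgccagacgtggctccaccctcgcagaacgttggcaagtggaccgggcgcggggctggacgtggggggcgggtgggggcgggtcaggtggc
H3c14: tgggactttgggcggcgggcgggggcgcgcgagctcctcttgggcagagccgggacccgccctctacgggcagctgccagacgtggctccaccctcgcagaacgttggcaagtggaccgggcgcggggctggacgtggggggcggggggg
H4c9: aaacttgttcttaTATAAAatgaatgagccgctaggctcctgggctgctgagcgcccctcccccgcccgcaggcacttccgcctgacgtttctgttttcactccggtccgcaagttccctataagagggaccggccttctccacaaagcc
H1f2: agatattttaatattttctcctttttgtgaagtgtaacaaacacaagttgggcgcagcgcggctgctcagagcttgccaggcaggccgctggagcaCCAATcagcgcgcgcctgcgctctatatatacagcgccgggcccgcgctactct
H2bc1: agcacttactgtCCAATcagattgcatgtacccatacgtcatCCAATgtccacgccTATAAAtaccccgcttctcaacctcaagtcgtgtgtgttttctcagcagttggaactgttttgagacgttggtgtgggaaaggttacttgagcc
H1f6: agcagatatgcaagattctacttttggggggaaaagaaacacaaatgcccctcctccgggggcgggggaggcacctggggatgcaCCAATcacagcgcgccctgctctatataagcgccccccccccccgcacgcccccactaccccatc
These stretches lie at chr13:23683960-23684109 (minus strand) for H2ac6, chr13:21753926-21754075 (plus) for H2bc15, chr3:96239128-96239277 (minus) for H3c15, chr3:96246535-96246684 (plus) for H3c14, chr13:22041363-22041512 (minus) for H4c9, chr13:23738657-23738806 (plus) for H1f2, chr13:23934157-23934306 (minus) for H2bc1 and chr13:23695661-23695810 (plus) for H1f6. The H3c15 and H3c14 stretches held none of the 3 motifs and repeat each other with an offset of 15 bases.

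Over the whole 300-base windows and both strands, the CCAAT box was found in 51 of the 62 members (82.3%) and in 38.1% of the 21200 other promoter windows of the same length. The TATA box was found in 34 members (54.8%) against 12.5% of the other windows, and the octamer in 12 members (19.4%) against 1.60%. The median GC content was 45.7% in the member windows and 56.5% in the others. How far base composition accounts for these motif shares was not tested. The motifs divided by class. CCAAT stood in 17 of 17 H2A, 14 of 14 H2B and 10 of 10 H3 windows, in 7 of 10 H1 windows and in 3 of 11 H4 windows. The octamer stood in 6 H2A and 6 H2B windows and in no H1, H3 or H4 window. Windows of H2A and H2B genes that stand back to back overlap, so the same site can be counted for both genes. The octamer was counted at both H2ac12 and H2bc12, both H2ac8 and H2bc8, and both H2ac1 and H2bc1. The H2A and H2B counts are therefore not counts of separate sites. TATAAA stood in 11 of 17 H2A, 7 of 14 H2B, 4 of 10 H1, 4 of 10 H3 and 8 of 11 H4 windows. In no member window did matches to different motifs share a base, and 5 windows held none of the 3. A match is a run of letters and not a measured binding site.

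In cardiac macrophages after infarction, NPM1 peaks stood at the ends of nearly every clustered histone gene. The infarct list marked 62 of the 67 members (92.5%) with 52 distinct peaks, where it marked 50.6% of all protein-coding genes. All 12 H3 and all 12 H4 genes were marked, as were 16 of 17 H2A, 15 of 16 H2B and 7 of 10 H1 genes. The 5 members without a peak were H1f6, H1f7, H1f8, H2ac1 and H2bc1. With −log10 q of at least 5, 53 members (79.1%) and 27.9% of all genes were left. Peak height over local background, the deposited fold, ran from 2.30 to 6.42 in the members with a median of 4.30, close to the median of 4.17 over all marked genes. At fold 5 or more the members were 16 of 67 (23.9%), and 17.1% of all genes were above that height. The share of members marked was thus above that of all genes, while the fold of their peaks was near the middle.

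The class medians of the infarct fold were 3.53 for H1, 4.60 for H2A, 4.30 for H2B, 4.61 for H3 and 4.22 for H4. H1 was lowest, and 3 of its 10 genes passed −log10 q 5, against 15 of 17 for H2A, 14 of 16 for H2B, 11 of 12 for H3 and 10 of 12 for H4. The highest fold was at the neighbours H2ac6 and H2bc4, which encode H2A and H2B and share a peak of 1201 bp at chr13:23683404-23684604. That peak had fold 6.42 with −log10 q 23.2. It covers the H2ac6 stretch shown above, with its octamer, CCAAT boxes and TATA box. The most significant peak was shared by H3c15 and H2ac19 on chromosome 3, at 96238991 to 96240489, with fold 6.27 and −log10 q 34.9. The neighbouring near-copy at H2ac18 and H3c14 had fold 5.62 and −log10 q 26.8.

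Among H4 genes H4c9 led, with fold 5.95 and −log10 q 21.9 over 643 bp. H4c18 came next in −log10 q, with fold 4.76 and −log10 q 16.9, in a peak it shared with H2ac24. H2bc21 had fold 5.74 and −log10 q 17.3, in a peak shared with H2ac21 and H2ac20. H3c6, an H3 gene on chromosome 13, had fold 5.60 and −log10 q 14.98. Of the linker histones H1f2 was highest, with fold 5.29 and −log10 q 10.6, and H1f3 came next in −log10 q with 3.99 and 6.52. The lowest marked member was H3c8, whose peak, shared with H2ac10, had fold 2.30 and −log10 q 1.60.

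**Figure D1:**
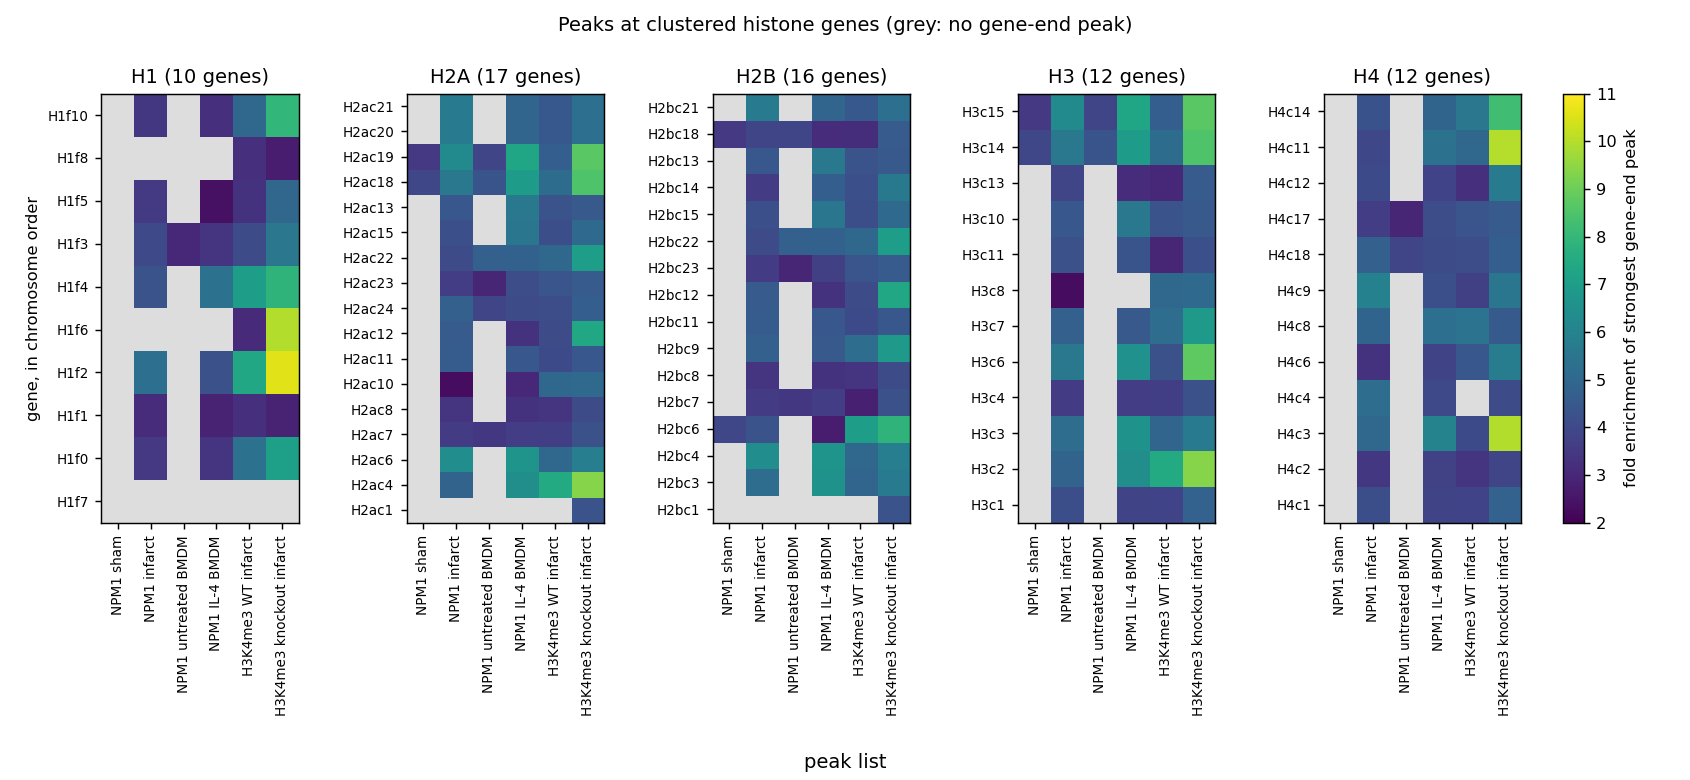
Fold of the strongest gene-end peak (height over local background, colour scale) of each of the 67 histone genes in the 6 libraries, in 1 panel per histone class. Grey cells have no peak: the sham and untreated columns are mostly grey, with 6 and 15 members marked, and the germ-cell genes stay grey in all 4 NPM1 columns.

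In sham-operated hearts 6 of 67 members (8.96%) were marked, with 4 distinct peaks, against 10.9% of all genes. In the infarct list and not in sham 56 of 67 members were marked, where the same held for 43.4% of all genes. None was marked in sham alone, against 3.75% of all genes, and 6 of 67 were marked in both, against 7.14%. The 6 were H3c15, H2ac19, H2ac18, H3c14 and H2bc18 on chromosome 3, and H2bc6 on chromosome 13. Their sham peaks had folds of 3.50 to 3.93, and rested on 7 or 8 reads at the summit. None reached −log10 q 5, against 0.681% of all genes, or fold 5, against 0.818%. The share marked in infarct alone was larger in the members than in all genes, and sham marked few genes of any kind.

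For H3c15 and H2ac19, which share their peak, the sham peak had fold 3.50, −log10 q 1.41 and 7 reads at the summit over 200 bp. The infarct peak there had 81 reads over 1499 bp. At H2ac18 and H3c14 the sham peak had fold 3.93, −log10 q 2.06 and 8 reads, and the infarct peak had 69 reads. The genome-wide background was 2.35 times as high in infarct as in sham. The fold, which divides by the local background, was 6.27 in infarct at the first of these peaks and 5.62 at the second. How far depth accounts for the difference in summit reads was not tested. H2bc18 had fold 3.50 in sham and 3.89 in infarct, with −log10 q 1.41 and 7.26, but these were peaks at different places. The sham peak lay past the end of the gene, at chr3:96270988-96271187. The infarct peak lay at chr3:96269402-96270354 and was shared with H3c13. The sham peak of H2bc6, with fold 3.93, lay at the far end of its long annotation and not at the H2B message. Of the 4 distinct sham peaks at members, 2 overlapped an infarct peak, against 28.7% of all sham peaks.

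In BMDM the same classes were marked after IL-4. The IL-4 list marked 61 of 67 members (91.0%) with 52 distinct peaks, against 51.2% of all genes, and the untreated list marked 15 (22.4%) with 10 distinct peaks, against 6.71% of all genes. After IL-4 alone 46 of 67 members were marked, a larger share than the 46.5% of all genes. In untreated cells alone 0 of 67 were marked, against 1.98% of all genes, and in both 15 of 67, against 4.73%. By class the IL-4 list marked 7 of 10 H1, 16 of 17 H2A, 15 of 16 H2B, 11 of 12 H3 and all 12 H4 genes. With −log10 q of at least 5, 50 members (74.6%) and 29.4% of all genes were left after IL-4, and 0 members and 0.397% of all genes in untreated cells. No member reached fold 5 in untreated cells, against 0.425% of all genes. The fold after IL-4 ran from 2.40 to 7.33 with a median of 4.45, against 3.96 over all marked genes, and 20 members (29.9%) reached fold 5, against 15.9%.

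The highest IL-4 folds were those of chromosome 3. H3c15 and H2ac19 had fold 7.33, −log10 q 57.7 and 117 reads over 1814 bp, against fold 3.89, −log10 q 2.03 and 8 reads in untreated cells. H2ac18 and H3c14 had fold 6.97, −log10 q 54.9 and 116 reads, against 4.32, 2.72 and 9 reads untreated. H2ac6 and H2bc4 had fold 6.67 and −log10 q 25.6 after IL-4 and no peak in untreated cells. H3c6 had 6.56 and 21.7, H2bc3 with H3c3 had 6.58 and 18.3, and H2ac4 with H3c2 had 6.44 and 18.8. The ends of H4 genes were led by H4c3 in fold, with 6.02 and −log10 q 20.0. The peak shared by H4c17 and H2ac23 had fold 4.12 and −log10 q 19.6. H1f4 led the linker histones in fold, with 5.40 and −log10 q 10.7.

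The 15 members marked in untreated BMDM were H3c15, H2ac19, H2ac18, H3c14, H2bc18, H2ac22, H2bc22, H2bc23, H2ac23, H4c17, H4c18, H2ac24, H1f3, H2bc7 and H2ac7. Their folds ran from 2.96 to 4.75 on 6 to 10 summit reads. The highest was shared by H2ac22 and H2bc22, with fold 4.75 and −log10 q 3.47, where IL-4 gave 4.79 and 10.5. H1f3 was the 1 linker histone gene among them, with fold 3.03 and −log10 q 0.850. All 10 distinct untreated peaks overlapped an IL-4 peak, against 41.0% of all untreated peaks. The 5 chromosome 3 members H3c15, H2ac19, H2ac18, H3c14 and H2bc18 were marked in all 4 NPM1 lists.

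Infarct macrophages and IL-4-treated BMDM were marked at nearly the same histone genes. Of the 67 members, 61 were marked in both lists, against 43.5% of all genes. The single member marked in infarct alone was H3c8, against 7.10% of all genes, and none was marked in IL-4 alone, against 7.75%. H3c8 stood beside H2ac10, which kept an IL-4 peak with fold 3.01. Of the 52 distinct infarct peaks, 48 overlapped an IL-4 peak, against 51.1% of all infarct peaks. Over the 61 members Spearman's rho of the fold was 0.73, where all genes marked in both gave 0.81. The members share peaks and the peaks share each library, so this is a description and not a test.

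**Figure D2:**
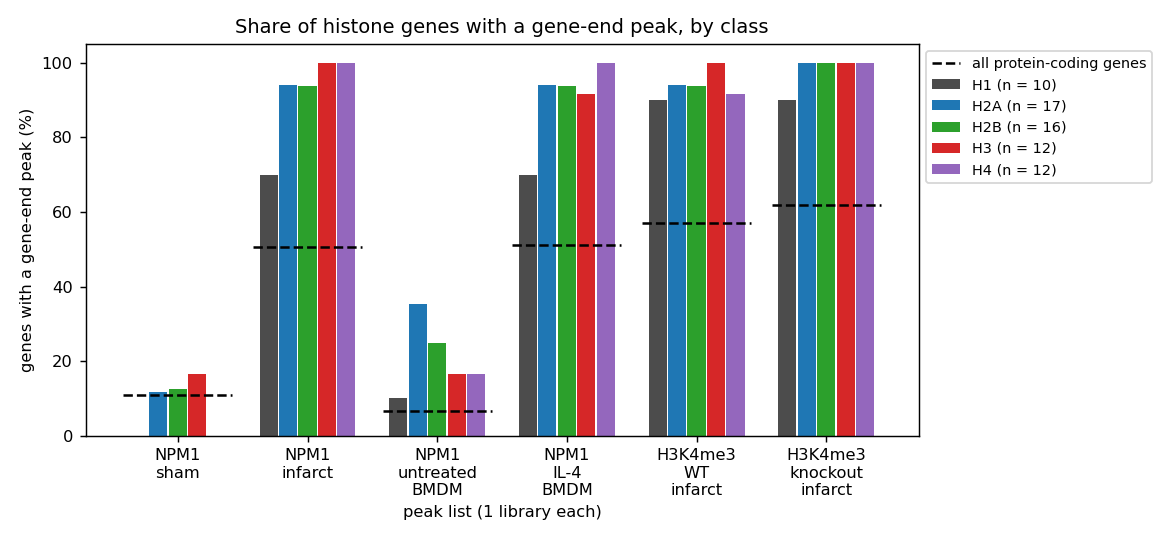
Percentage of members with a gene-end peak in each histone class (bars) in each of the 6 libraries; the dashed line is the percentage of all protein-coding genes. In the infarct and IL-4 lists the core histone bars stand far above the line of 50.6% and 51.2%, and the H1 bar is the lowest at 7 of 10 genes. The H1 genes unmarked in these lists are the germ-cell members H1f6, H1f7 and H1f8.

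The genes without a gene-end peak in any NPM1 list shared a known use in germ cells, a grouping chosen after their values were seen. H1f6 and H1f7 encode testis linker histones, H1f8 the oocyte linker histone, and H2ac1 and H2bc1 the testis forms of H2A and H2B. These 5 were unmarked in all 4 NPM1 lists. Of the other 62 members, 6 were marked in sham, 62 in infarct, 15 in untreated and 61 in IL-4-treated cells. H1f6 and the H2ac1 and H2bc1 pair lie in the chromosome 13 cluster. The windows of H2bc1 and H1f6 hold CCAAT boxes like those of marked members, as the sequences above show.

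H3K4me3 was low at the same 5 genes. In wild-type cells H1f8 had a peak with fold 3.25 and −log10 q 2.63, H1f6 one with 3.06 and 1.81, and the remaining 3 had none. In the knockout H1f8 had fold 2.67 and −log10 q 1.27. H2bc1 and H2ac1 shared a 297 bp knockout peak with fold 4.30, −log10 q 5.01 and 14 reads at the summit. The peak counted for H1f6 in the knockout, with fold 9.95, is that of its neighbour H4c3, with its summit 2475 bp from the H1f6 start. H1f7 had no gene-end peak in any of the 6 lists.

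The linker histone genes outside the clusters that are used in somatic cells are H1f0, known from resting and differentiated cells, and H1f10. Both had modest NPM1 peaks. H1f0 had fold 3.48 in infarct and 3.34 after IL-4, with −log10 q 4.16 and 4.07, but these were peaks at different places. The infarct summit lay 331 bp after the start. The IL-4 peak lay past the end of the gene, with its summit 2843 bp after the start. H1f10 had folds of 3.44 and 3.21, with −log10 q 3.67 and 3.77. Their H3K4me3 peaks were higher, with folds of 5.35 and 7.06 for H1f0 and 5 and 7.97 for H1f10 in wild-type and knockout cells. Neither was marked in sham or untreated macrophages. H1f1, a clustered linker histone gene, had NPM1 folds of 3.13 and 2.86 and H3K4me3 folds of 3.21 and 2.89.

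The peaks covered the start of the gene and its short body. Of 62 members with an annotated start, the start lay inside an NPM1 peak in 45 in infarct cells, against 38.2% of the 17492 genes with an entry, and in 46 after IL-4, against 38.1%. In sham it lay inside a peak in 0, against 0.783%, and in untreated cells in 4, against 1.50%. The median summit lay 123 bp into the gene in infarct and 128.5 bp after IL-4. The share of members covered was highest, at 79.0%, 40 bp after the start in infarct, and highest, at 82.3%, 120 bp after it in IL-4. At 500 bp into the gene 30.6% of members and 11.4% of all genes were covered in infarct, and 43.5% and 11.3% after IL-4. Members' NPM1 peaks were wider, with a median of 806 bp against 554 bp over all marked genes in infarct and 847 bp against 544 bp after IL-4. A close neighbour can add to these widths.

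**Figure D3:**
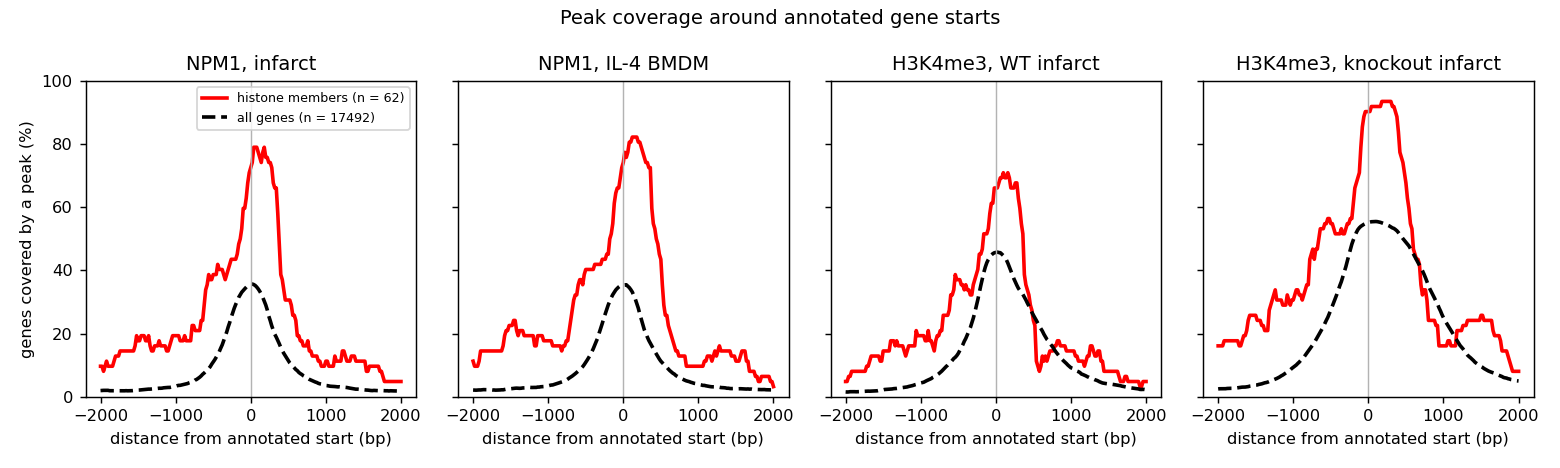
Percentage of genes covered by a peak at each distance (bp) from the annotated start, along the gene's own strand, for 62 members (solid) and 17492 genes (dashed), in the infarct, IL-4 and both H3K4me3 lists. The member curves rise to 79.0% and 82.3% just after the start in the NPM1 lists and stay above the line of all genes through the gene body.

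H2A and H2B genes often stand back to back and share a promoter. With an annotated start on both sides, 9 such pairs were found, their starts 164 to 281 bp apart with a median of 180 bp. A single NPM1 peak spanned both starts in 7 of the 9 in infarct and in 7 after IL-4, and in 0 in sham and untreated cells. A single H3K4me3 peak did so in 5 in wild-type and 8 in knockout cells. Back-to-back pairs of other genes were not counted, so these numbers have no matching share beside them. Of all genes with an entry, 38.2% in infarct, 38.1% after IL-4, 0.783% in sham and 1.50% in untreated cells had their start inside a peak. For H3K4me3 this was 48.3% in wild-type and 57.9% in knockout cells. The summit seldom lay between the starts. In infarct it lay on the H2A side in 3 pairs and on the H2B side in 5, and in none between. After IL-4 it lay on the H2A side in 5, on the H2B side in 2, and between the starts in 1, the pair H2ac15 and H2bc15. For H3K4me3 no summit lay between: the H2A and H2B sides had 4 and 3 in wild-type cells and 6 and 2 in the knockout. Outside the shared promoter, the median summit stood 173 bp (infarct), 231 bp (IL-4), 254 bp (wild-type) and 247.5 bp (knockout) into the gene.

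H3K4me3 stood at nearly all members in both genotypes. The wild-type list marked 63 of 67 (94.0%) with 69 distinct peaks, against 57.1% of all genes, and the knockout list 66 (98.5%) with 55 distinct peaks, against 61.8%. In the knockout alone 3 members were marked, H4c4, H2bc1 and H2ac1, against 8.37% of all genes, in wild-type alone 0, against 3.73%, and in both 63, against 53.4%. By class wild-type cells marked 9 of 10 H1, 16 of 17 H2A, 15 of 16 H2B, all 12 H3 and 11 of 12 H4 genes. Knockout cells marked 9 of 10 H1 and every core histone gene. With −log10 q of at least 5 the counts were 48 (71.6%) in wild-type, against 42.8% of all genes, and 65 (97.0%) in the knockout, against 57.0%. At fold 5 or more they were 20 (29.9%) in wild-type, against 28.7%, and 38 (56.7%) in the knockout, against 50.2%. H4c4 had no gene-end peak in wild-type cells and fold 4.11 with −log10 q 28.3 in the knockout.

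At the members marked in both genotypes the knockout list held larger peaks, as it did at most genes. Covered bases, counted from 2 kb before to 2 kb after each gene, were more numerous in the knockout for 62 of 63 members, against 90.5% of all genes marked in both. The exception was H4c11, with 1704 bases in wild-type and 1688 in knockout cells. The fold was higher for 60 of 63, against 94.4% of all genes, and −log10 q for 62 of 63, against 98.9%. The fold was not higher at H1f8, H4c8 and H1f1, and at H1f8 the 2 lists' peaks did not overlap. The median of covered bases was 988 in wild-type and 1771 in knockout cells for the members, and 1280 and 1980 for all genes. The median difference was 599 bases for members and 721 for all genes. The histone genes thus differed between the lists in the same direction as most genes.

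The size of that difference depended on the measure. The median ratio of knockout to wild-type fold was 1.25 for the members and 1.53 for all genes. Fold is the summit height divided by the local background, each with 1 added. Read out of fold and p, the summit reads had a median of 24 in wild-type and 142 in knockout cells for the members, and 31 and 183 for all genes. The median ratio was 6.06 for members and 5.60 for all genes, and 62 of 63 members had more summit reads in the knockout, against 98.2% of all genes. The local background had medians of 4.70 and 25.9 reads at the members and 4.74 and 19.8 at all genes. The members' lower fold ratio thus came with a higher local background in the knockout list. With summits several times as high on a genome-wide background of 2.49 against 2.92 reads, the 2 lists differ in signal over the whole genome, and genotype and library cannot be told apart.

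The class medians of the knockout to wild-type fold ratio were 1.37 for H1, 1.18 for H2A, 1.23 for H2B, 1.28 for H3 and 1.30 for H4. In covered bases the class medians of the difference were 631, 605, 590, 595.5 and 391, in the same order. H1f2 had the highest member fold in the knockout, 10.6 with −log10 q 145, against 7.36 and 19.0 in wild-type cells. H3c15 and H2ac19 rested on 296 summit reads in the knockout and 43 in wild-type cells, with folds of 8.69 and 4.69. H2ac18 and H3c14 had folds of 8.54 and 5.17. The highest wild-type fold, 7.51, was at H2ac4 and H3c2, with 9.37 in the knockout. H4c11 had 5.04 and 10.01, and H4c14, the chromosome 3 H4 gene, had 5.56 and 8.25. H2bc9 and H3c7 had 5.23 and 6.83. H4c8 had 5.41 in wild-type and 4.55 in knockout cells, although its −log10 q was 16.9 and 52.1. H1f4 had 7.06 and 7.85, in peaks it shared with H2bc6.

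**Figure D4:**
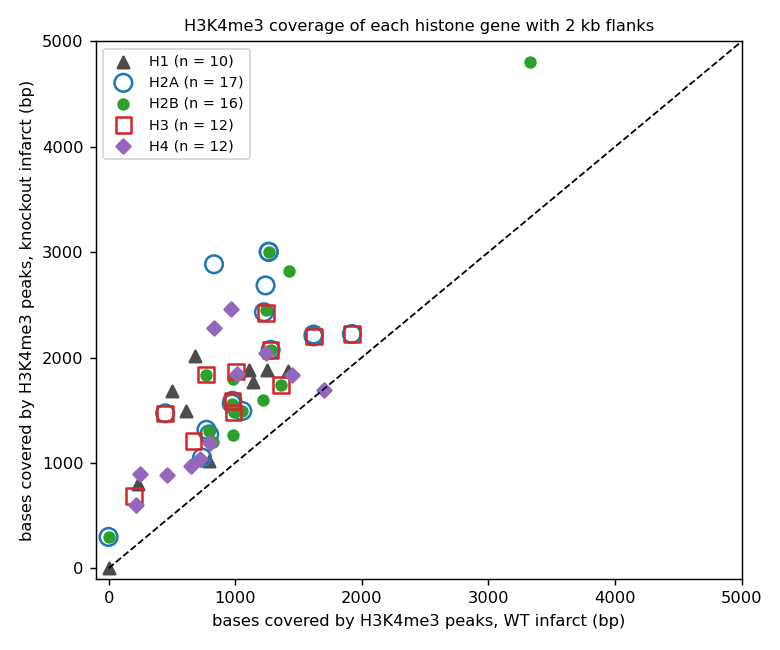
Bases covered by H3K4me3 peaks from 2 kb before to 2 kb after each histone gene in knockout (vertical) against wild-type cells (horizontal), with equality dashed. Of the 63 members marked in both, 62 lie above the line, and H4c11 lies just below it.

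Over all members the median H3K4me3 summit lay farther into the gene than that of NPM1, but this did not hold class by class. For H2B genes the median offset was −480 bp in wild-type and −415 bp in knockout H3K4me3. For NPM1 it was −323 bp in infarct and −391 bp after IL-4, negative values lying before the start. The strongest peak of an H2B gene was often shared with a neighbour, so such a summit can lie inside that neighbour. In infarct the H2bc13 summit at −571 bp lay 342 bp into H2ac13. A weaker infarct peak over the H2bc13 start had its summit 137 bp into H2bc13. In the other classes the direction depended on which lists were compared. Over all members the median summit offset from the start was 166.5 bp in wild-type and 156 bp in knockout cells, against 123 and 128.5 bp for NPM1. The start itself lay inside an H3K4me3 peak in 41 of 62 members in wild-type cells, against 48.3% of genes, and in 56 in the knockout, against 57.9%. Coverage of members was highest at 71.0%, 100 bp after the start, in wild-type cells and at 93.5%, 180 bp after it, in the knockout. At 500 bp the shares were 24.2% of members and 25.9% of all genes in wild-type, and 67.7% and 48.9% in knockout cells. At 1000 bp, beyond the end of most histone genes, they were 14.5% and 9.20% in wild-type, and 16.1% and 25.04% in knockout cells.

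NPM1 and H3K4me3 marked the same histone genes with different standing among genes. The infarct NPM1 and wild-type H3K4me3 lists, both from wild-type infarct macrophages, marked 61 members in common, against 45.3% of all genes. NPM1 alone marked 1, H4c4, against 5.33%, and H3K4me3 alone marked 2, H1f8 and H1f6, against 11.9%. Of the 52 distinct infarct NPM1 peaks, 47 overlapped a wild-type H3K4me3 peak by at least 1 bp, against 38.9% of all infarct peaks, and 52 a knockout one, against 34.8%. H4c4 had an NPM1 peak of 927 bp with fold 5.23 at chr13:23581449-23582375.

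Among the 9905 genes marked in both wild-type infarct lists, the members' median fold percentile was 48.2 for NPM1 and 29.4 for H3K4me3. The NPM1 percentile was the higher for 47 of 61 members, against 51.3% of all genes. With IL-4 NPM1 against wild-type H3K4me3 the medians were 55.2 and 28.9, and NPM1 was higher for 51 of 60, against 51.1% of genes. Against the knockout H3K4me3 list the medians were 49.0 and 16.6, with 52 of 62 higher, against 51.0%. Ranked by summit reads, which do not divide by the local background, the gap was wider. The medians were 70.0 for infarct NPM1 and 23.8 for wild-type H3K4me3, with 56 of 61 members higher for NPM1, against 50.7% of genes. For IL-4 they were 73.4 and 23.8, with 54 of 60, against 50.4%, and for infarct against knockout 72.0 and 24.7, with 59 of 62, against 48.9%. The local background of infarct NPM1 was 6.69 reads at members and 4.06 at all marked genes. Histone genes thus ranked above the middle in NPM1 reads and in the lower part for H3K4me3. The 2 antibodies and libraries differ, and members share peaks. The IL-4 comparison also sets BMDM against infarct cardiac macrophages. The comparison with the knockout list also sets wild-type against knockout cells.

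**Figure D5:**
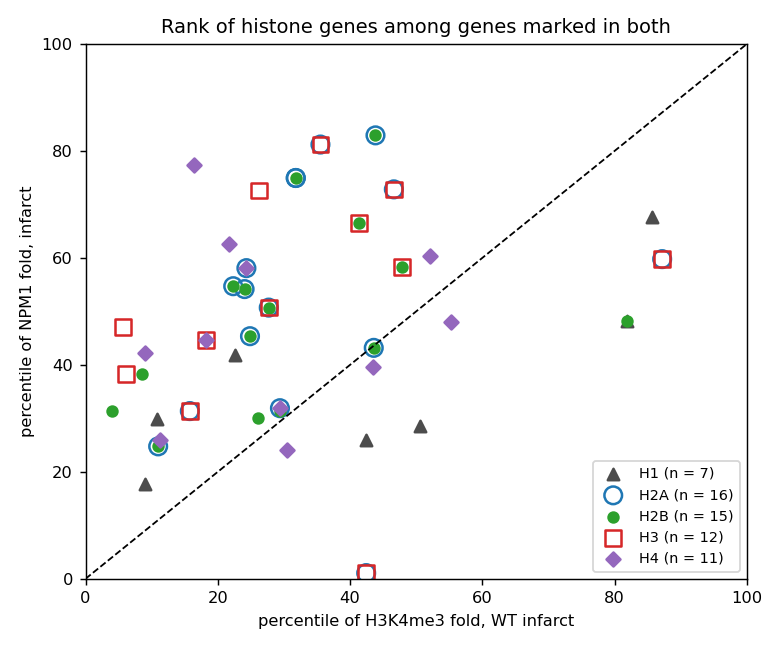
Percentile of the infarct NPM1 fold (vertical) against that of the wild-type H3K4me3 fold (horizontal) among 9905 genes marked in both, for 61 histone genes coloured by class; markers overlap where members share a peak. Of the members, 47 lie above the diagonal, with medians of 48.2 and 29.4.

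The individual members show the spread behind those medians. H4c9 had an NPM1 fold of 5.95 in infarct and an H3K4me3 fold of 3.71 in wild-type cells. H2ac6 and H2bc4 had 6.42 and 5.05. H1f2 ran the other way, with 5.29 and 7.36, as did H1f4, with 4.30 and 7.06. H3c8 had 2.30 and 5. Over the 61 members Spearman's rho between the 2 folds was 0.39, and over all genes marked in both 0.50, which is a description.

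Histone variant genes are expressed outside DNA replication and were read beside the members. Of 9 replication-independent variant genes, 7 had gene-end NPM1 peaks in infarct and 7 after IL-4, 0 in sham and 1 in untreated cells, and all 9 had H3K4me3 in both genotypes. The shares of all genes in those lists were 50.6%, 51.2%, 10.9%, 6.71%, 57.1% (wild-type) and 61.8% (knockout), so 1 of 9 in untreated cells is near the background. H3f3a, an H3.3 gene, had NPM1 folds of 6.84 and 6.90 with −log10 q 26.8 and 29.99 in infarct and IL-4. H2az1, which encodes H2A.Z, had 5.67 and 5.62, and Cenpa, the centromeric H3, had 6.80 and 6.29. H3f3b, the other H3.3 gene, and Macroh2a2 had no NPM1 peak in the gene-end windows of either list. Peaks elsewhere in the gene or its 2 kb flanks covered 851 bases of H3f3b in infarct and 1357 after IL-4, and 979 and 880 bases of Macroh2a2. H3f3b had a wild-type H3K4me3 fold of 2.92. 

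The factors that switch on and process histone mRNA were read in the same way. Of 21 such genes, 19 had gene-end NPM1 peaks in infarct, against 50.6% of all genes, and 20 after IL-4, against 51.2%. Sham marked 3, against 10.9%, and untreated cells 3, against 6.71%, and 21 had H3K4me3 in both genotypes, against 57.1% and 61.8%. Gon4l and Cstf2 were the 2 without a gene-end infarct peak. Npat, whose product gathers histone transcription, had an NPM1 fold of 11.2 with −log10 q 37.3 in infarct and 8.14 and 26.2 after IL-4, above every clustered histone gene in fold in both lists. Its H3K4me3 folds were 8.57 in wild-type and 7.66 in knockout cells. Slbp, the stem-loop binding protein, had NPM1 folds of 6.36 and 6.06, and Hinfp, an activator of H4 genes, 7.31 and 8.70. Pou2f1, which binds the octamer, was marked in all 4 NPM1 lists with folds of 4.44 in sham, 9.06 in infarct, 9.59 in untreated and 9.65 in IL-4-treated cells.

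Most of the other genes lying among the histone genes were unmarked. The chromosome 13 cluster spans 51 other protein-coding genes, of which 10 were marked by NPM1 in infarct, 5 after IL-4, 2 in sham and 1 in untreated cells. H3K4me3 marked 7 in wild-type and 9 in knockout cells. Over all genes the shares were 50.6%, 51.2%, 10.9%, 6.71%, 57.1% and 61.8% for infarct, IL-4, sham, untreated, wild-type and knockout. H4bc24, whose older symbol is that of an H2B gene but whose present one falls outside the member rule, is among the 51. It was the single gene marked in untreated cells and was marked in infarct, IL-4 and both H3K4me3 lists. Of the 51, 36 are vomeronasal receptor genes, used in the sensory neurons of the vomeronasal organ. These were marked 0 times in infarct, untreated, IL-4 and both H3K4me3 lists and 1 time in sham. The 15 others accounted for all 10 infarct and all 5 IL-4 marks. No other protein-coding gene lies within the chromosome 3 cluster.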

How the data were processed

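The submitters deposited 1 narrow peak list per library, on mm10 per the submitters' processing notes, which name bcl2fastq 2.17, Bowtie2, MACS2 2.2.7.1 and deepTools. CUT&Tag libraries were made with a Hyperactive kit per the labels' protocols. Settings, controls and the handling of reads that match several places are not stated in the sources used here. Each deposited peak carries the authors' score, a ratio of height to local background (fold), −log10 p, −log10 q and a summit position. These values are the authors' and describe peaks within a list. The smallest deposited −log10 p was 2.01, and peaks with q above 0.05 were from 5.01% to 27.8% of a list.

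Peaks were joined to genes of the RefSeq table and promoter table of GRCm38.p6 with Python 3 scripts (pandas, numpy, scipy). The strongest gene-end peak is that of highest −log10 q. Summit reads and local background are the whole number and rate that give the deposited fold and p, solved within 0.001 in −log10 p for every member peak; the code was tested on simulated data. With 1 library per group no p-value was computed. Members, lists and the named-gene rule were chosen with earlier results of these data known. Named were, in each class, the 2 members of highest −log10 q in the infarct, IL-4 and H3K4me3 lists, members marked in sham or untreated cells, members unmarked in both H3K4me3 lists, and members outside a cluster; others were named after their values were seen. A cluster is 3 or more members with under 3 Mb between neighbours. Alternatives were a stricter q, q of at most 0.05, fold of at least 5, other windows, summits only, each peak given to 1 member and summits scaled to the shallowest background of the same antibody.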

Additional observations from a re-analysis of the deposited data

How the results depend on the processing

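Depth differs between the NPM1 lists: with summits scaled to the sham background, 60 members stayed marked in infarct (44.1% of genes) and 59 after IL-4 (38.0%), and the member peaks in sham and untreated cells rest on 6 to 10 summit reads, so an unmarked member there is not shown to lack NPM1. No paired analysis was possible because each group has 1 library. Over the comparison counts 96 settings stayed near the reported value and 34 moved. With fold of at least 5 the marked members were 0 in sham, 16 in infarct, 0 in untreated, 20 after IL-4, 20 in wild-type and 38 in knockout H3K4me3. It left 16 in infarct alone and 0 in infarct and sham both, 20 in IL-4 alone and 0 in IL-4 and untreated both, and 19 in knockout alone, 1 in wild-type alone and 19 in both. With −log10 q of at least 5, sham and untreated cells had 0 members, as had both pairs' overlaps, and the knockout alone had 17. The share of all genes in the knockout alone was not computed at these 2 thresholds. Of all genes, −log10 q of at least 5 marked 42.8% in wild-type and 57.0% in knockout H3K4me3. Fold of at least 5 marked 28.7% and 50.2%. With q of at most 0.05, wild-type alone had 1. Giving each peak to 1 member left 9 in untreated cells, 3 in sham alone, 1 in sham and infarct both, 1 in untreated alone, 8 in untreated and IL-4 both, 9 in knockout alone and 11 in wild-type alone. With summits alone, 1 was in sham alone and 1 in wild-type alone, and with 500 bp windows 7 were in knockout alone and 2 in wild-type alone. The median of covered bases over all members, 983 in wild-type and 1740 in knockout cells, became 0 and 974 with fold of at least 5, and 366 and 472 within the gene alone.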

Other observations

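Of 3 histone pseudogenes, which are not members, H2ac14 and H2ac5-ps lie in the chromosome 13 cluster and H1f11-ps on chromosome 19. H2ac14 had NPM1 folds of 3.55 in infarct and 4.68 after IL-4 and H3K4me3 folds of 4.21 in wild-type and 5.63 in knockout cells, in peaks it shared with the intact gene H2bc14. H2ac5-ps had NPM1 folds of 5.21 and 6.58 and H3K4me3 folds of 4.95 and 5.69, the values of the peak at H2bc3 and H3c3. H1f11-ps had a peak in the sham list alone, with fold 3.50 and −log10 q 1.41.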
